A study of Mus musculus with 3 samples.

Results

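Exocrine gland-secreted peptides (ESPs) were followed in nuclei of the mouse lacrimal gland through 5 of their genes, Esp15, Esp16, Esp18, Esp23 and Esp36. They were taken by symbol from the 32285 genes of the deposited feature lists, and 5 of 5 were found. The series profiled nuclei with a droplet method from 10x Genomics, as 3 libraries with 1 per group. The control library came from a healthy mouse gland. The scopolamine library came from the dry eye model induced with scopolamine, a blocker of muscarinic receptors, together with dry stress. The tamsulosin library came from the same model with tamsulosin added, a blocker of alpha-1 adrenergic receptors, so both dry eye libraries share scopolamine and dry stress. The strain, sex, age, doses, days of treatment and number of animals per library were not given in the sources used here. The labels' protocol names a sort with red fluorescent protein (RFP+) and a plate method beside the 10x method. Whether the sort applies to these libraries, the origin of that protein and the cells it marks were not given. The kit reads the 3′ ends of transcripts. With n = 1 library per group, no difference between groups could be tested. All intervals below cover counting error only, at the 95% level, and no p-value is given.

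ESPs are small peptides with a signal sequence that exocrine glands, the lacrimal gland foremost, release into tears and saliva. Mice pick them up by contact, and vomeronasal sensory neurons detect them through receptors of the V2R family, so that they act as chemical signals between animals. Their genes lie in 1 cluster on chromosome 17 and differ between strains and sexes: Esp1 is known for a peptide of male tears, and Esp36 for expression in the extraorbital lacrimal gland of females of some strains. The acinar cell, which makes most tear proteins, is the usual source.

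The symbols of the feature lists gave 15 Esp genes, all on chromosome 17, across 2315 kb. In the mouse genome GRCm38 (GENCODE annotation) the members are protein-coding genes. Esp36 lies at chr17:38416474-38420185 on the minus strand and has 4 exons. Each of the others has 3 exons: Esp23 at chr17:39073691-39077037 on the minus strand, Esp18 at chr17:39406359-39410992, Esp16 at chr17:39536142-39540847 and Esp15 at chr17:39640954-39645666, the last 3 on the plus strand. Esp15 and Esp16 are neighbours 100.1 kb apart, and their coding sequences without the stop codon are both 255 bases (85 codons). These 2 sequences are shown because their likeness sets how well reads can be told apart. They are from the GENCODE transcripts, 5′ to 3′, and capitals mark the 11 bases at which they are not the same.
Esp15 coding sequence: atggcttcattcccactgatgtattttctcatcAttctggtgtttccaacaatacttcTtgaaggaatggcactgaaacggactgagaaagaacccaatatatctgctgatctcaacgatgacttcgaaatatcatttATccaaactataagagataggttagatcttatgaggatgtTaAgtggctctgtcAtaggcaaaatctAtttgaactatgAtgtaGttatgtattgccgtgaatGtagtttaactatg
Esp16 coding sequence: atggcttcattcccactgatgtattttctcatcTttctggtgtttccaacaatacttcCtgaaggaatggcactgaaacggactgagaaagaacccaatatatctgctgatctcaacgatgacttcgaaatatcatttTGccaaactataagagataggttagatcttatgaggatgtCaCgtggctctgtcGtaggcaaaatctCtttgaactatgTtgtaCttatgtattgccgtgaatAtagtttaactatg
Aligned over 255 columns, these coding sequences were 95.7% identical. Esp18 was 74.0% identical to Esp15 and 75.1% to Esp16, and every pair with Esp23 or Esp36 lay between 39.2% and 50.5%. Of all 50-base windows of the Esp15 transcript, 21.9% occur in another Esp transcript, and of Esp16, 21.2%. In the last 300 bases, where a method that counts transcript ends draws its reads, the shares were 30.3% and 33.1%. For Esp18 the share was 0.579% of all windows and 2.79% in the last 300 bases, and for Esp23 and Esp36 both were 0. Reads of Esp15 and Esp16 can therefore be split or dropped between these near-identical copies, and their separate levels are uncertain. Windows were compared only with the longest transcripts of the other Esp genes. Likeness of any member to other sequences was not tested. RefSeq lists the name Esp16 as a synonym of Esp15, and it also holds an entry under the symbol Esp16 with a start of its own.

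The upstream regions of 5 of 5 members were matched in RefSeq by symbol (GRCm38.p6). They are shown for 4 members because Esp15, Esp16 and Esp18 were higher and Esp36 lower in the dry eye libraries, as described further on. Each is the 250 bases before the transcription start, 5′ to 3′ on the strand of the gene, with the motifs CCAAT and TATAAA in capitals.
Esp15 (chr17:39640707-39640956, plus strand): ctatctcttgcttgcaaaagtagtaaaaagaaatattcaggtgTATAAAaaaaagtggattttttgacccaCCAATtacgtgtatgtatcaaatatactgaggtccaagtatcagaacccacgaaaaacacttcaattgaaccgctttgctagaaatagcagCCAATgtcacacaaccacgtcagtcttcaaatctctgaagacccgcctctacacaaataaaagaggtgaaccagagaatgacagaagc
Esp16 (chr17:39535892-39536141, plus strand): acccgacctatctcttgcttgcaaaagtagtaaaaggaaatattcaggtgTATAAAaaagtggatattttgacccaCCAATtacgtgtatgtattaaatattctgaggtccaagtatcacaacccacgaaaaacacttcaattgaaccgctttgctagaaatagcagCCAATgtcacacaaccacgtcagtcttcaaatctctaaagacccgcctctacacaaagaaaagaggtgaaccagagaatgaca
Esp18 (chr17:39406109-39406358, plus strand): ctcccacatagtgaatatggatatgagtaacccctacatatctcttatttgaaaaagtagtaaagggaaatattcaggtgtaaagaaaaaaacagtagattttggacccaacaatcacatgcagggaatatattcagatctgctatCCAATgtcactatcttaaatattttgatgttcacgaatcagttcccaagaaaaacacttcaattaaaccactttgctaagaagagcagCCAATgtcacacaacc
Esp36 (chr17:38420186-38420435, minus strand): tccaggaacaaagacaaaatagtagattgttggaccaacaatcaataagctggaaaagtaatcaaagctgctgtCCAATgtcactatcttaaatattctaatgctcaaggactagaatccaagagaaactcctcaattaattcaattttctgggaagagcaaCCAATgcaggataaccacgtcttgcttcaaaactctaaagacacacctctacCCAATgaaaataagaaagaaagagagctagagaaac
Motifs were searched on both strands in the window from 250 bases before to 50 after each start. CCAAT was found in 5 of 5 members, against 37.4% of all 32851 RefSeq windows of that length and 5 of 7 other Esp genes with an entry. TATAAA was found in 3 of 5 (Esp15, Esp16 and Esp23), against 13.6% of all windows and 0 of 7 other Esp genes. AGAACA, a short form of the steroid receptor element, was found in 0 of 5 members, against 19.0% of all windows and 4 of 7 other Esp genes. The longest run shared by Esp15, Esp16 and Esp18 has 24 bases, agcagCCAATgtcacacaaccacg. It begins 93, 88 and 21 bases before the respective start and occurs in 0 other windows of the table, those of Esp23 and Esp36 included. This run, unlike the motifs, was searched on the strand of the gene alone. Over the whole window, Esp15 and Esp16 were 93.2% identical. These matches describe letters only.

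The libraries held 33500727 control, 35237256 scopolamine and 57969348 tamsulosin unique molecular identifiers (UMIs, counted transcripts). After filtering, 6780 control, 9205 scopolamine and 10864 tamsulosin nuclei remained, with median depths of 2318, 1732 and 3361 UMIs. Their median numbers of genes were 1305, 775 and 1197.5, and their median mitochondrial shares 0.115%, 0.264% and 0.743%. The part of these differences in the Esp levels was not tested. Levels are UMIs summed over the nuclei of a class and library and scaled to 1000000 (CPM). Most clusters of epithelial nuclei came almost wholly from 1 library, so library and cluster cannot be told apart there. Control shared 19 cell barcodes with scopolamine and 23 with tamsulosin, and the dry eye libraries shared 31. The acinar-like class held 5186, 2401 and 2346 nuclei. It was compared mainly through its deep clusters, those with a median of at least 4000 UMIs, which had like depths in the 3 libraries: 1812 control nuclei (median 5711 UMIs), 1941 scopolamine nuclei (4809) and 1647 tamsulosin nuclei (5716). Almost all of these were 1 cluster for control, with most scopolamine nuclei in another and most tamsulosin nuclei in yet another. Control also had 2925 ordinary acinar-like nuclei of median depth 1763, against 32 and 0. Kit-type acinar-like nuclei, led by Kit, Car6 and Odam, numbered 449, 428 and 699. Left outside the acinar-like class were a shallow unnamed cluster, with 40.0% of the scopolamine nuclei against 0.118% of control and 0.221% of tamsulosin, and low-complexity nuclei, with 0.133%, 5.63% and 29.1%. The Chst9-type class (418, 605 and 3412 nuclei) is epithelial and was not named further. Of 18 duct markers, 3 were at least 2-fold above the median of clusters in its control cluster. In its clusters from mostly dry eye nuclei, 10 and 9 were, so its control and dry eye parts differ in markers.

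The acinar label rests on weak evidence in these data. The summed list of 20 acinar markers took 4.97%, 16.03% and 23.04% of UMIs in deep acinar-like nuclei of the control, scopolamine and tamsulosin libraries. In macrophage-like nuclei of the same libraries it took 5.74%, 18.2% and 27.8%, so the sum does not set the classes apart. Of the sum in deep acinar-like nuclei, 4 tear transcripts (Scgb1b2, Scgb2b2, Mucl2 and Obp1a) took 3.75%, 14.1% and 20.3% of UMIs. Chrm3, the muscarinic receptor of acinar cells, was at 3812, 3967 and 3359 CPM in deep acinar-like nuclei and at 2822, 1927 and 1152 CPM in macrophage-like nuclei. Chst9-type nuclei had it at 4049, 3690 and 3074 CPM, which is above the deep acinar-like level in control. Slc12a2, a chloride importer of secretory cells, went the other way, at 21.0, 24.4 and 73.4 CPM in deep acinar-like and 52.9, 89.2 and 166 CPM in macrophage-like nuclei. Of the 20 markers, 10 in control and 9 in each dry eye library were higher in deep acinar-like than in macrophage-like nuclei. The 12 macrophage markers summed to 0.0143%, 0.00755% and 0.00664% of UMIs in deep acinar-like nuclei (1 of 12 at 0, in tamsulosin) and to 0.166%, 0.227% and 0.234% in macrophage-like nuclei. RNA free in the droplets gives secreted transcripts to every class. Macrophages should not make ESPs, so each level below stands beside the macrophage-like level, whose part in the acinar-like level was not tested further than by subtraction. The choice of that class matters: between non-epithelial or myoepithelial-like classes Esp36 ranged 1.32-fold in control, 2.20-fold in scopolamine and 2.999-fold in tamsulosin, with myoepithelial-like nuclei lowest in each library. An excess is therefore also given over myoepithelial-like nuclei where this changes what it shows. Each subtraction takes free RNA to be the same share of UMIs in both classes. Macrophage-like nuclei were shallower than deep acinar-like ones, at medians of 2376, 1867.5 and 2569 UMIs, as were myoepithelial-like nuclei (3435, 2724 and 2988). Mucl2, a tear transcript, was higher in macrophage-like than in deep acinar-like nuclei in each library. The part of depth in each excess was not tested.

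Esp15 had the highest level of the family per kb of transcript in deep acinar-like nuclei. In deep acinar-like nuclei it was at 4393 CPM in control (4360 to 4426), 11651 in scopolamine (11590 to 11712) and 12142 in tamsulosin (12081 to 12204). Both dry eye libraries were thus above control, and they were close to each other. The scopolamine level was 2.65 times control (2.63 to 2.68) and the tamsulosin level 1.04 times scopolamine (1.03 to 1.05). In macrophage-like nuclei Esp15 was at 3260, 7613 and 8327 CPM, which is 74.2%, 65.3% and 68.6% of the deep acinar-like level. The excess over macrophage-like nuclei was 1133 CPM in control (1034 to 1232), 4037 in scopolamine (3886 to 4188) and 3815 in tamsulosin (3661 to 3968). The excess was therefore also larger in both dry eye libraries than in control. Over myoepithelial-like nuclei it was 1410 CPM (1326 to 1494), 5740 CPM (5605 to 5874) and 4436 CPM (4271 to 4601). On that scale tamsulosin was below scopolamine, and both were above control.

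Esp16, the near copy of Esp15, had the largest ratio between libraries of the 5 in deep acinar-like nuclei. Deep acinar-like nuclei had it at 85.5 CPM in control (81.0 to 90.2), 643 in scopolamine (628 to 657) and 698 in tamsulosin (683 to 713). The scopolamine level was 7.52 times control (7.09 to 7.97), and the tamsulosin level was 1.09 times scopolamine (1.05 to 1.12). Macrophage-like nuclei had 42.4, 428 and 484 CPM, so the order of the libraries was the same there. The excess of deep acinar-like over macrophage-like nuclei was 43.1 CPM in control (31.5 to 54.7), 214 in scopolamine (179 to 250) and 213 in tamsulosin (176 to 250). Per 1000 Esp15 UMIs, deep acinar-like nuclei held 19.5 Esp16 UMIs in control (18.4 to 20.5), 55.2 in scopolamine (53.9 to 56.4) and 57.5 in tamsulosin (56.2 to 58.7). The pair thus stood in about the same proportion in both dry eye libraries and in another in control.

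Esp18 was higher in each dry eye library than in control, by less than Esp15 and Esp16. In deep acinar-like nuclei it was at 985 CPM in control (970 to 1001), 1274 in scopolamine (1254 to 1294) and 1576 in tamsulosin (1553 to 1598). Each library was above the one before it, by 1.29 times (1.27 to 1.32) and 1.24 times (1.21 to 1.26). Macrophage-like nuclei held 79.1%, 77.1% and 87.3% of these levels, the highest shares of the 5 members in each library. The excess was 205 CPM (157 to 254), 292 CPM (239 to 346) and 200 CPM (139 to 261), with intervals that overlap. Over myoepithelial-like nuclei the excess was 305 CPM (265 to 345), 416 CPM (366 to 466) and 157 CPM (88.1 to 227). For Esp18 the order of the libraries thus does not show in the excess over either class.

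Esp36 went the other way. In deep acinar-like nuclei it was at 960 CPM in control (945 to 975), 332 in scopolamine (322 to 343) and 380 in tamsulosin (369 to 391). Control was above both dry eye libraries, scopolamine being 2.89-fold lower (2.79 to 2.99) and tamsulosin 2.53-fold lower (2.45 to 2.61). Macrophage-like nuclei had 704, 153 and 132 CPM, a steeper difference than in deep acinar-like nuclei. The excess over macrophage-like nuclei was 256 CPM in control (210 to 302), 179 in scopolamine (157 to 201) and 247 in tamsulosin (227 to 268). On that scale scopolamine was below the other two, and the intervals of control and tamsulosin overlap. Over myoepithelial-like nuclei the excess was 426 CPM (390 to 462), 240 CPM (221 to 258) and 336 CPM (320 to 352), so that control was then above tamsulosin and scopolamine was again lowest. Deep acinar-like nuclei were 1.36 times macrophage-like nuclei in control (1.28 to 1.46), 2.17 times in scopolamine (1.90 to 2.49) and 2.87 times in tamsulosin (2.50 to 3.30).

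Esp23 was the lowest member per kb of transcript. Deep acinar-like nuclei had it at 29.5 CPM in control (26.9 to 32.3), 22.7 in scopolamine (20.1 to 25.6) and 10.96 in tamsulosin (9.18 to 12.98), from 465, 274 and 134 UMIs. Tamsulosin was the lowest library, 2.69-fold below control (2.21 to 3.28) and 2.07-fold below scopolamine (1.68 to 2.57). In macrophage-like nuclei Esp23 was at 16.7, 11.7 and 5.54 CPM, and the excess was 12.8 CPM (5.58 to 19.97), 10.99 CPM (4.94 to 17.03) and 5.41 CPM (1.34 to 9.48). These intervals overlap, so the order of the excess was not detectable at this depth.

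**Figure D1:**
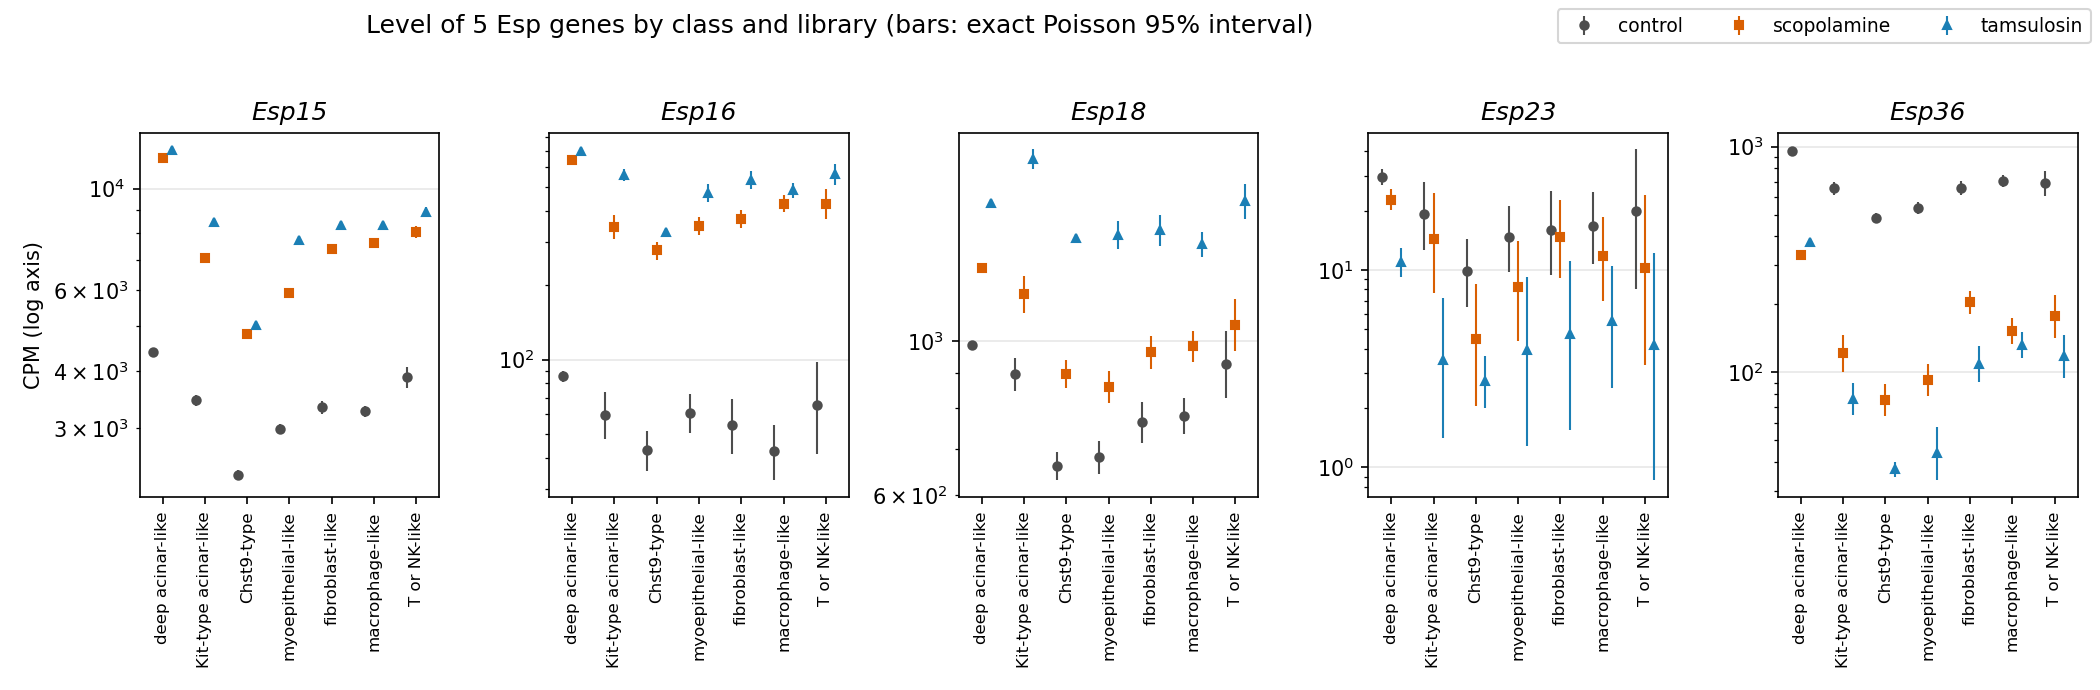
Level of the 5 Esp genes (CPM, log axis, a scale of its own for each gene) in 7 classes of nuclei that have at least 100 nuclei in each library; points are the 3 libraries and bars the exact Poisson 95% intervals. In every class shown, Esp15 and Esp16 are higher in both dry eye libraries than in control, and Esp36 is lower.

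The same members were then set against all genes. In the whole acinar-like class, the log2 ratio of CPM (with 5 CPM added to each) was taken relative to the median over genes at a mean of 20 CPM or more, and a gene was counted as higher or lower past 1.5-fold. For scopolamine against control, Esp15 (relative log2 1.46) and Esp16 (2.94) were counted higher, 2 of 5 members, where 5.29% of 5786 genes were. Esp36 (-1.40) was counted lower, 1 of 5, where 3.37% were. Esp18 (0.44) and Esp23 (-0.22) were counted neither way. In the plot of the distribution over all genes, Esp16 lies in the far right tail and Esp36 in the left one, while Esp23 and Esp18 lie in its centre and shoulder.

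For tamsulosin against scopolamine, 0 of 5 members were counted higher, where 3.77% of 5519 genes were, and 0 lower, where 0.145% were. Esp18 came nearest to the limit, with 1610 against 1266 CPM and a relative log2 of 0.54. Esp15, Esp16 and Esp36 lay at 0.23, 0.32 and 0.28. Esp23 was at 9.91 against 22.1 CPM, 2.23-fold lower (1.82 to 2.75), and was under the minimum mean for counting. For tamsulosin against control, which shares a library with each of the other comparisons, Esp15 (1.68), Esp16 (3.25) and Esp18 (0.97) were counted higher, where 8.86% of 5669 genes were, and Esp23 (-0.90) and Esp36 (-1.13) lower, where 3.7% were. After the macrophage-like level was subtracted, Esp16 alone stayed counted higher (1.11), Esp15 was counted neither way (0.32), and Esp18 was counted lower (-1.14). The same subtraction took Esp15 to 0.55 in scopolamine against control, counted neither way, and Esp18 to -0.82, counted lower. These counts are relative to a class median that moved, from -0.38 to 0.86 and from -0.19 to 0.80 in these comparisons. Of all genes, 22.0% and 23.6% were then counted higher and 17.5% and 19.4% lower. The counts do not by themselves show a lower excess. In deep acinar-like nuclei the excess of Esp15 was larger in both dry eye libraries than in control. That of Esp18 had overlapping intervals over macrophage-like nuclei. Over myoepithelial-like nuclei it was 305 CPM in control (265 to 345), 416 in scopolamine (366 to 466) and 157 in tamsulosin (88.1 to 227). On that scale the Esp18 excess was above control in scopolamine and below it in tamsulosin.

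**Figure D2:**
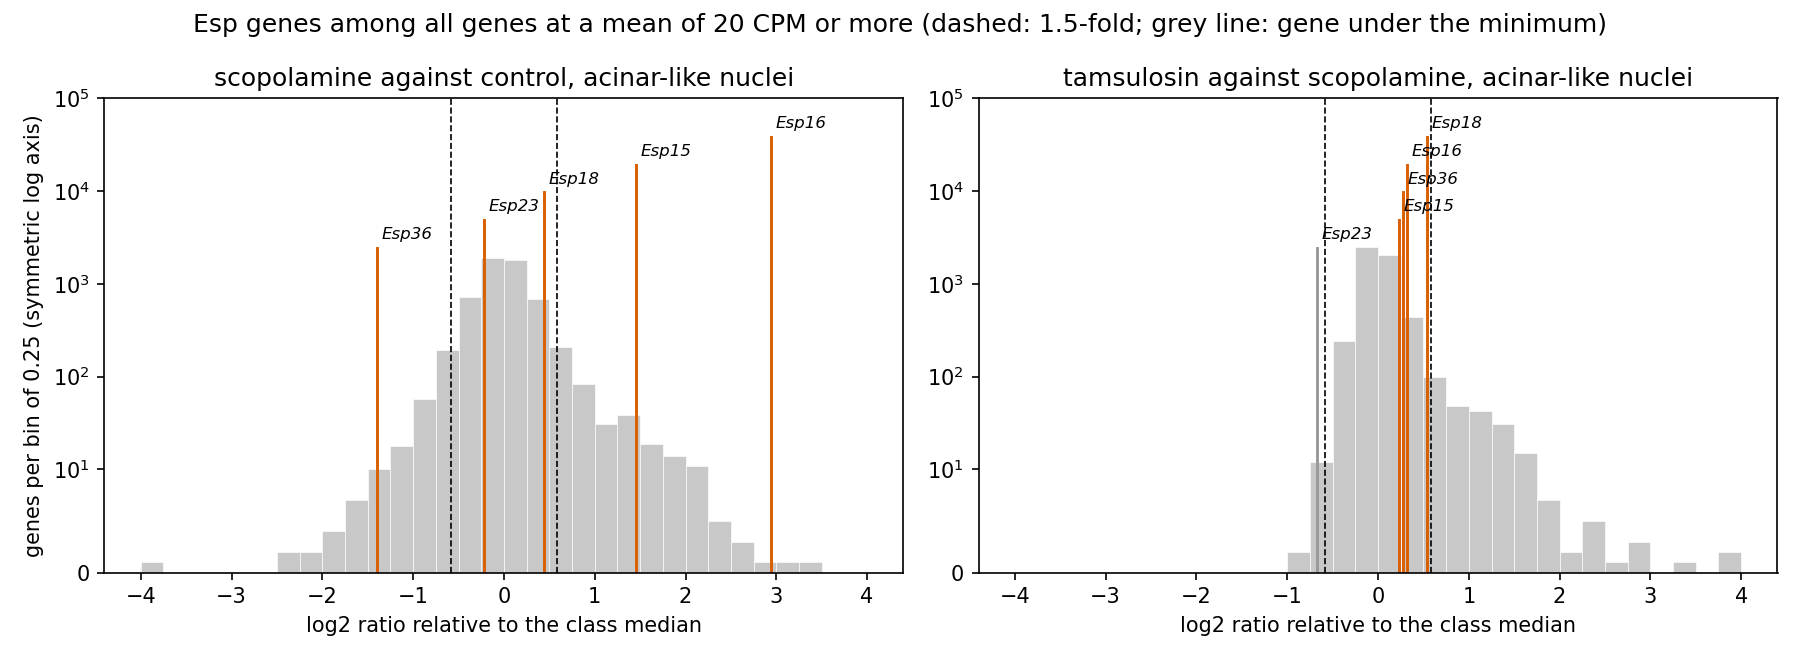
Number of genes (symmetric log axis) by log2 ratio relative to the class median, in acinar-like nuclei, for scopolamine against control and tamsulosin against scopolamine; vertical coloured lines are the 5 Esp genes, grey where the gene is under the minimum, and dashed lines are 1.5-fold. Esp15 and Esp16 lie past the upper line and Esp36 past the lower line in the first comparison, and none of the 4 genes above the minimum lies past a line in the second.

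Within deep acinar-like nuclei alone, Esp18 also passed the limit for scopolamine against control (relative log2 0.60), which made 3 of 5 members higher (background 6.45%), with Esp36 lower (background 4.13%). The directions held in most other classes. Over 7 classes with at least 100 nuclei in each library, Esp15 was above control in the scopolamine library in 7 of 7, from 1.98 times in myoepithelial-like to 2.65 times in deep acinar-like nuclei. Esp16 was above it in 7 of 7, from 5.74 times in myoepithelial-like to 10.1 times in macrophage-like nuclei. Both were counted higher in all 7 classes. Of all genes, the share counted higher was 6.45% in deep acinar-like, 10.7% in Kit-type, 12.1% in Chst9-type, 16.2% in myoepithelial-like, 11.5% in fibroblast-like, 15.1% in macrophage-like and 14% in T or NK-like nuclei. Esp18 was above control in 6 of 7, and its interval included 1 in T or NK-like nuclei, where the ratio was 1.14. It was counted higher in 4 of the 7 classes.

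Esp36 was below control in the scopolamine library in 7 of 7 classes, from 2.89-fold in deep acinar-like to 6.39-fold in Chst9-type nuclei. It was counted lower in all 7. Of all genes, the share counted lower was 4.13%, 8.54%, 11.1%, 14.9%, 8.19%, 12.5% and 11% in the same order of classes. The smallest difference was thus in the acinar-like nuclei that had the most of it. Esp23 was below control in 2 of 7 classes, and its interval included 1 in the other 5. In the tamsulosin library against scopolamine, Esp15, Esp16 and Esp18 were above in 7 of 7 classes, by at most 1.30, 1.62 and 1.65 times. Esp15 was counted higher in 2, Esp16 in 4 and Esp18 in 6 of these classes. Of all genes, the share counted higher was 3.17% in deep acinar-like, 9.53% in Kit-type, 5.76% in Chst9-type, 8.49% in myoepithelial-like, 12.1% in fibroblast-like, 6.59% in macrophage-like and 12.6% in T or NK-like nuclei. Esp36 was above in 1 of 7, deep acinar-like nuclei, at 1.14 times (1.10 to 1.19), and below in 5 of 7, with the lowest ratio, 0.475, in myoepithelial-like nuclei. It was counted lower in 3 classes, where the share of all genes counted lower was 0.126%, 2%, 1.9%, 6.38%, 7.88%, 3.79% and 7.5% over the 7 classes in the same order. That the difference between classes exceeds what a repeat of the libraries would give was not tested.

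**Figure D3:**
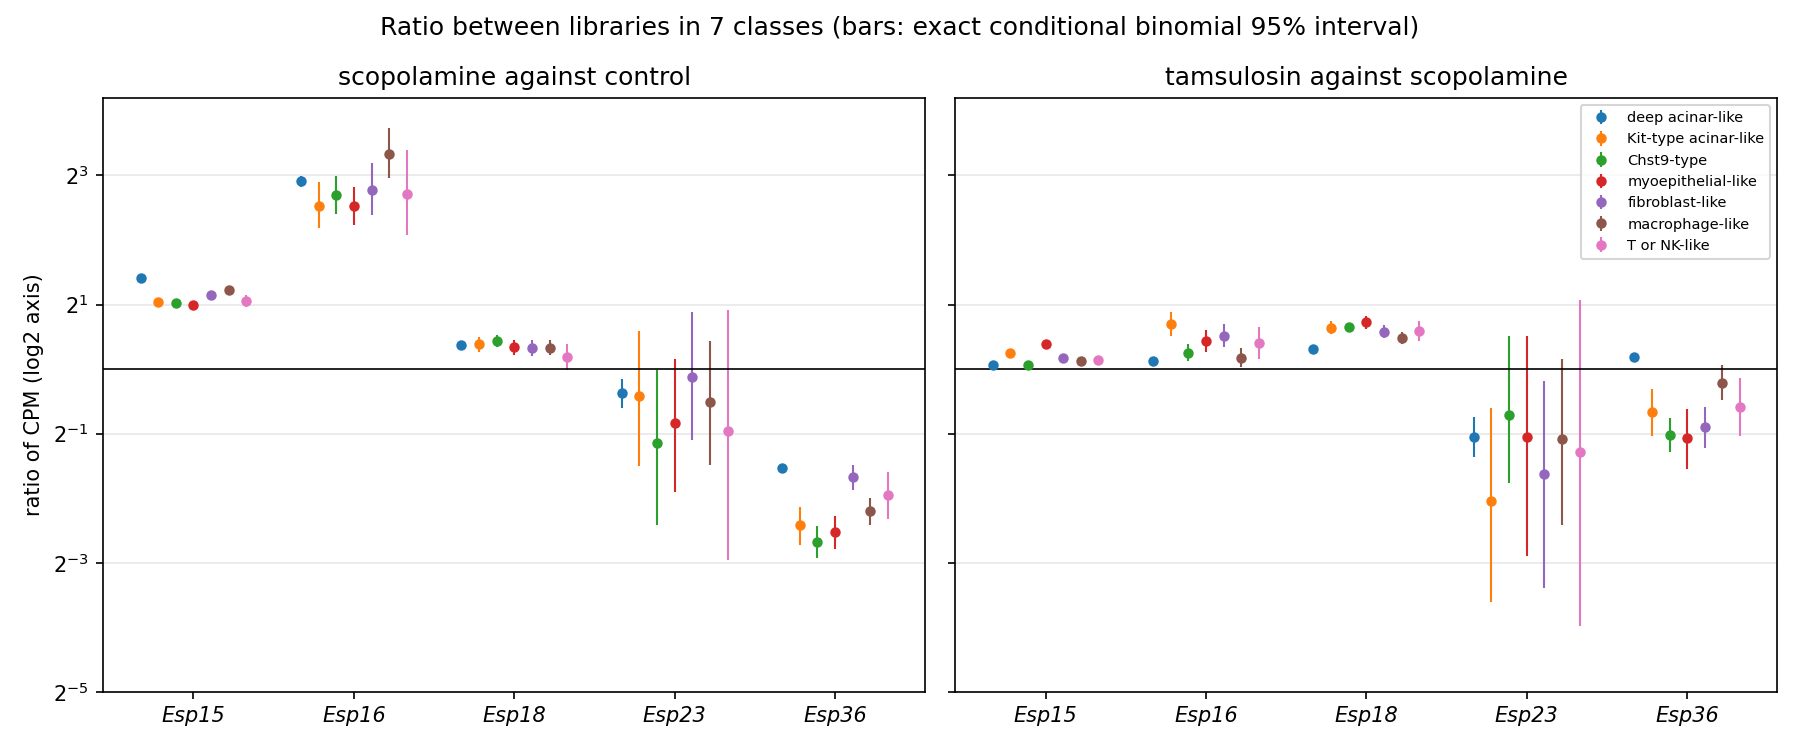
Ratio of CPM between libraries (log2 axis) for each of the 5 Esp genes in 7 classes, scopolamine against control on the left and tamsulosin against scopolamine on the right; bars are exact conditional binomial 95% intervals and the black line is a ratio of 1. On the left the points of Esp15 and Esp16 lie above the line and those of Esp36 below it in all 7 classes; on the right Esp36 is above the line in deep acinar-like nuclei alone.

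Across acinar subsets the members did not follow 1 order. In control, the ordinary acinar-like nuclei were above the deep ones for Esp15 (5852 against 4393 CPM), Esp16 (102 against 85.5), Esp18 (1320 against 985), Esp23 (37.9 against 29.5) and Esp36 (1059 against 960). The median depths of these subsets were 1763 and 5711 UMIs, and the part of depth in this order was not tested. Kit-type nuclei were below deep ones for Esp36 in each library, with 653, 122 and 76.6 CPM, so that deep nuclei had 1.47 times (1.38 to 1.57), 2.73 times (2.26 to 3.33) and 4.96 times (4.22 to 5.86) as much. In all 3 libraries Esp36 in Kit-type nuclei was at or below the macrophage-like level, with a difference of -51.2 CPM in control (-112 to 9.39), -31.1 in scopolamine (-61.1 to -1.10) and -55.9 in tamsulosin (-77.3 to -34.4). Over myoepithelial-like nuclei the same difference was above 0, with 119 CPM (65.1 to 172), 28.99 CPM (1.71 to 56.3) and 32.4 CPM (15.7 to 49.2). Whether Kit-type nuclei hold Esp36 above background thus depends on the class taken as background.

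Esp18 had another pattern over the subsets. Kit-type nuclei were at 895, 1167 and 1824 CPM, and deep nuclei had 1.10 times as much in control (1.04 to 1.17), 1.09 times in scopolamine (1.03 to 1.16) and 0.864 times in tamsulosin (0.834 to 0.895). Esp18 in Kit-type nuclei stood above the macrophage-like level in each library, by 116 CPM (48.4 to 183), 185 CPM (98.8 to 271) and 449 CPM (366 to 531). Its excess over macrophage-like nuclei was thus larger in tamsulosin than in the other libraries. Over myoepithelial-like nuclei the excess of Esp18 in Kit-type nuclei was 215 CPM (153 to 277), 309 CPM (225 to 393) and 406 CPM (318 to 495). There the intervals of scopolamine and tamsulosin overlap. Esp15 in Kit-type nuclei, at 3446, 7067 and 8439 CPM, lay 187 CPM above macrophage-like nuclei in control (51.9 to 321), 546 CPM below them in scopolamine and 112 CPM above them in tamsulosin with an interval that includes 0 (-77.5 to 302). Over myoepithelial-like nuclei it lay 463, 1157 and 733 CPM higher. Chst9-type nuclei had the lowest Esp15 of the 7 compared classes in each library, with 2363, 4823 and 5023 CPM, below macrophage-like nuclei in all 3.

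Among the 2 groups left outside the acinar-like class, the shallow unnamed nuclei of the scopolamine library had more Esp15 than its deep acinar-like nuclei, 15034 against 11651 CPM, and somewhat less Esp36, 291 against 332 CPM. Low-complexity nuclei of the tamsulosin library had 11976 CPM of Esp15, 2207 of Esp18 and 91.8 of Esp36. The last is 4.14-fold below the deep acinar-like nuclei of that library (3.87 to 4.42), while Esp18 was above those nuclei, at 2207 against 1576 CPM.

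Free RNA from 1 source keeps its transcripts in 1 proportion in every class of a library. Per 1000 Esp15 UMIs, control nuclei had 219 Esp36 UMIs in deep acinar-like, 216 in macrophage-like and 179 in myoepithelial-like nuclei. In scopolamine the values were 28.5, 20.1 and 15.7, and in tamsulosin 31.3, 15.9 and 5.73. Deep acinar-like and macrophage-like nuclei did not differ beyond counting error in control, where myoepithelial-like nuclei were lower, and deep acinar-like nuclei stood above both in each dry eye library. For Esp16 the deep acinar-like and macrophage-like values were 19.5 and 13.01 in control, 55.2 and 56.3 in scopolamine and 57.5 and 58.2 in tamsulosin, so in both dry eye libraries these 2 classes held Esp15 and Esp16 in the same proportion within counting error. Esp18 per 1000 Esp15 UMIs was lower in deep acinar-like than in macrophage-like nuclei in both dry eye libraries, with 109 against 129 and 130 against 165. In control, 224 against 239, the intervals overlap.

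**Figure D4:**
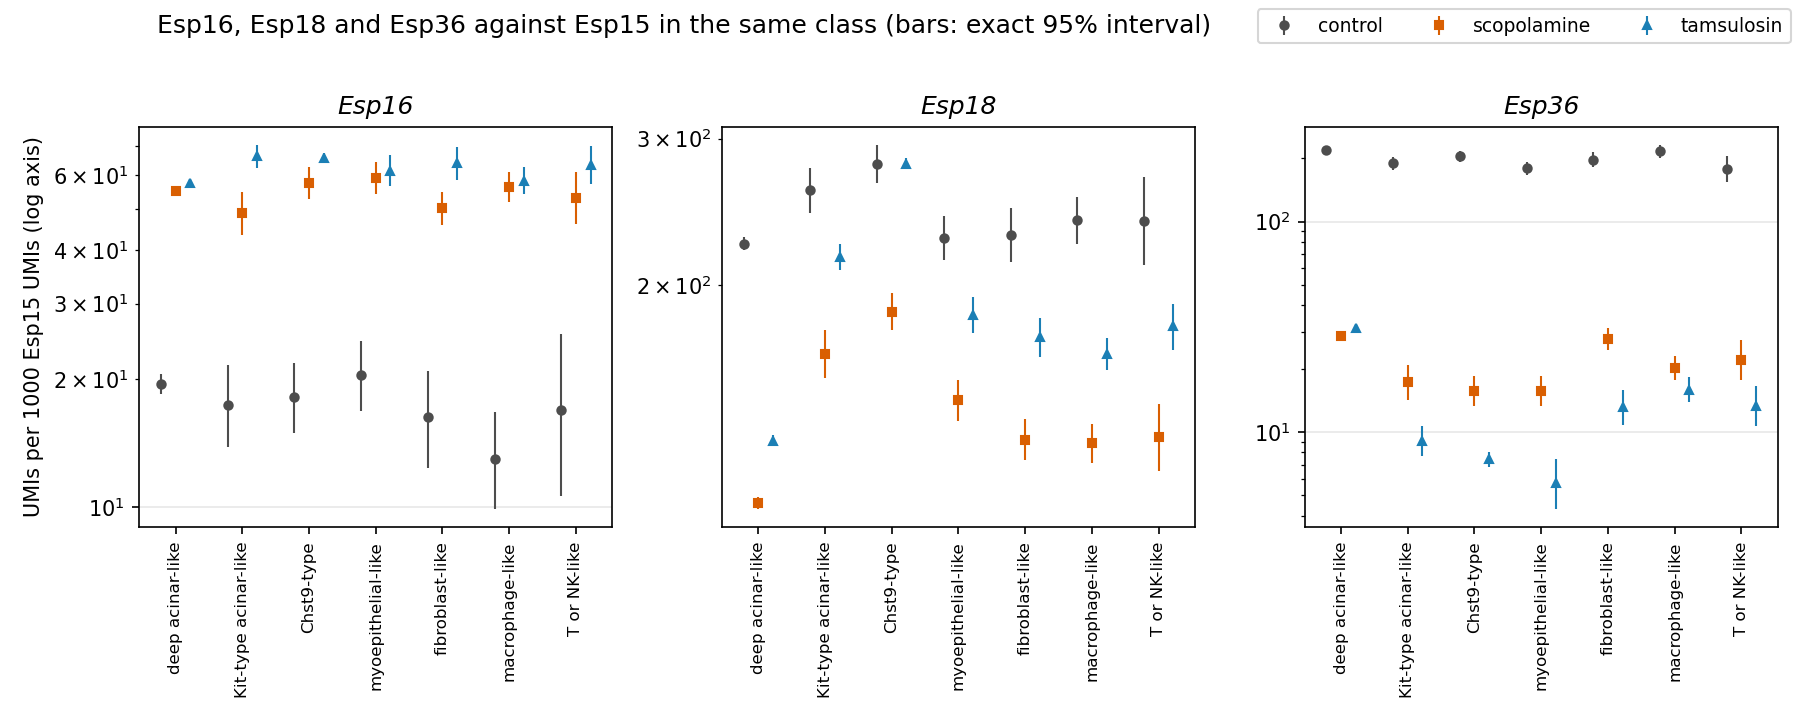
UMIs of Esp16, Esp18 and Esp36 per 1000 UMIs of Esp15 (log axis) in 7 classes of nuclei, by library, with exact 95% intervals. Esp16 stands at a higher level and Esp36 at a lower level in both dry eye libraries than in control in every class, and the classes spread widest for Esp36 in the tamsulosin library, from 5.73 in myoepithelial-like to 31.3 in deep acinar-like nuclei.

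The members were also set against the most abundant tear transcripts. The summed UMIs of Scgb1b2, Scgb2b2, Mucl2 and Obp1a, which encode secretoglobins, a mucin-like protein and an odorant-binding protein, took 3.75%, 14.1% and 20.3% of UMIs in deep acinar-like nuclei. Per 1000 of these UMIs, Esp15 counted 117 in control, 82.8 in scopolamine and 59.7 in tamsulosin. Esp36 counted 25.6, 2.36 and 1.87, and Esp16 2.28, 4.57 and 3.43. Esp15 was thus higher as a share of all UMIs and lower as a share of tear transcripts in the same libraries. Esp16 was the member that stood above control on both scales. In macrophage-like nuclei Esp15 counted 70.8, 46.5 and 33.2 per 1000, below deep acinar-like nuclei in each library.

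Shares of nuclei with at least 1 UMI depend on depth, so each nucleus was also thinned to 1000 UMIs. In deep acinar-like nuclei, Esp15 was then seen in 97.4%, 99.8% and 99.9% of nuclei (100% in each library without thinning) and in macrophage-like nuclei in 95.4%, 99.8% and 100%. Esp36 was seen in 52.8%, 22.0% and 22.1% after thinning (93.5%, 53.4% and 49.97% without) and in 54.7%, 11.7% and 5.39% of macrophage-like nuclei (82.0%, 24.2% and 16.4% without), whose median depths were 2376, 1867.5 and 2569 UMIs. The control share is thus at the background given by macrophage-like nuclei and goes against the CPM, so no order was read from it, while both dry eye shares are above that background. Esp16 was seen in 5.74%, 35.6% and 36.7% of thinned deep acinar-like nuclei and in 4.28%, 37.7% and 37.7% of macrophage-like nuclei. In the dry eye libraries this goes against the CPM, so no order was read from it. Esp18 was seen in 62.6%, 69.4% and 78.3%, against 50.8%, 64.2% and 75.4%, and Esp23 in 2.65%, 1.56% and 1.28%, against 2.14%, 1.57% and 0.431%. The members showed little relation from nucleus to nucleus: in thinned deep acinar-like nuclei of control the correlation of UMIs between Esp15 and Esp36 was 0.11 over 1812 nuclei, between Esp15 and Esp18 0.12, and between Esp16 and Esp36 0.03. With so few UMIs per nucleus, such values carry little.

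Within the family, levels were compared per kb of the longest transcript. Counts from a kit that reads 3′ ends need not grow with transcript length, so these ranks depend in part on the division. By CPM alone, Esp18 (985) was above Esp36 (960) in deep acinar-like nuclei of control, while per kb it ranked below. In deep acinar-like nuclei Esp15 ranked 1 of 15 in each library, with 3751, 9949 and 10369 CPM per kb. Esp18 ranked 5, 3 and 3, and Esp16 ranked 8, 6 and 6. Esp36 ranked 4 in control (859 CPM per kb), 8 in scopolamine (298) and 7 in tamsulosin (340). Esp23 ranked 10 in each. Of the 10 other Esp genes, 8 had at least 30 UMIs in each library: Esp1, Esp3, Esp4, Esp6, Esp24, Esp31, Esp34 and Esp38. Esp6 ranked 2 in each library. All 15 genes together took 1.02%, 1.63% and 1.59% of the UMIs of all nuclei.

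**Figure D5:**
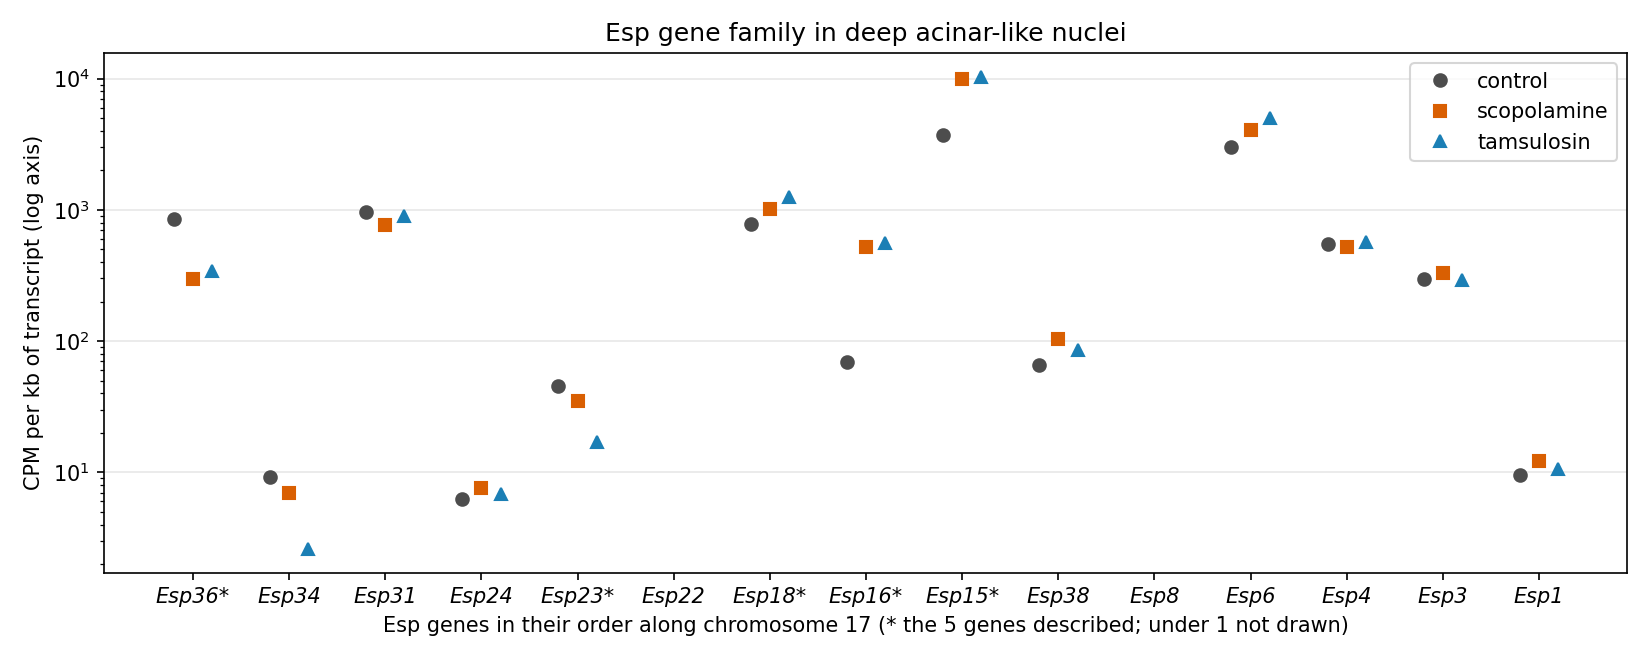
Level per kb of transcript (CPM per kb, log axis) of the Esp genes in deep acinar-like nuclei of the 3 libraries, in their order along chromosome 17; asterisks mark the 5 genes described, and genes under 1 are not drawn. Esp15 is highest in each library; control is the lowest library for Esp16 (68.8 against 517 and 561) and the highest for Esp36 (859 against 298 and 340).

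The other Esp genes were counted in the same way. For scopolamine against control in acinar-like nuclei, 5 of the 10 reached the minimum mean, of which 1, Esp38, was counted higher and 0 lower (median relative log2 0.40, against 0 over all genes by construction, with 5.29% and 3.37% of all genes counted). For tamsulosin against scopolamine 0 of 5 were counted either way, and for tamsulosin against control Esp4 and Esp6 were counted higher, where 8.86% of all genes were. Esp31 was at 1258, 1009 and 1171 CPM in deep acinar-like nuclei and Esp6 at 1992, 2679 and 3322. Esp1, of male tears, was at 9.95, 12.85 and 11.04 CPM. Esp4 had more in Kit-type than in deep nuclei in each library, at 475, 633 and 653 against 304, 290 and 312 CPM. Xist, the RNA of the inactive X chromosome, was at 1339, 1205 and 992 CPM over all nuclei, and the Y-linked Ddx3y had 1, 4 and 4 UMIs. All 3 libraries thus held Xist and next to no Ddx3y.

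Genes of the surrounding secretory programme were read from lists. Of 27 secreted tear proteins, 19 reached the minimum in acinar-like nuclei for scopolamine against control, and 12 were counted higher and 3 lower (median relative log2 1.17). Of all genes, 5.29% were counted higher and 3.37% lower there. For tamsulosin against scopolamine 17 of 19 were higher and 0 lower (1.08), beside 3.77% and 0.145% of all genes. Mucl2 was at 14630, 52128 and 77323 CPM in deep acinar-like and 18472, 58913 and 93408 in macrophage-like nuclei. Obp1a was at 11375, 40926 and 55026 CPM and Scgb2b2 at 6028, 25494 and 37187 in deep acinar-like nuclei. All 3 were higher again in tamsulosin than in scopolamine.

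Genes for making and processing secreted peptides were read next. Of 21 secretory pathway genes 17 reached the minimum, and for scopolamine against control 0 were counted higher and 1 lower (median relative log2 -0.06), beside 5.29% and 3.37% of all genes. That 1 was Furin, a protease that cleaves precursor proteins, at 504, 143 and 174 CPM in deep acinar-like nuclei. Spcs2 and Sec11c, subunits of the signal peptidase, were at 253, 306 and 309 CPM and at 215, 173 and 172 CPM. For tamsulosin against scopolamine 5 of 17 were counted higher and 0 lower (all genes 3.77% and 0.145%), and for tamsulosin against control 7 higher and 1 lower (8.86% and 3.7%). Of 15 transcription factors of secretory cells 13 reached the minimum, and 0 were counted higher and 1 lower in scopolamine against control (-0.06). Pax6, a regulator of lacrimal gland development, was at 648, 405 and 384 CPM, Xbp1, which drives the secretory machinery, at 532, 388 and 410, and Ehf, an epithelial factor, at 518, 542 and 453. Of 13 androgen response genes 5 reached the minimum, with 0 higher and 1 lower (0.01) in scopolamine against control. Beside both of these lists stand the same 5.29% and 3.37% of all genes, and such small counts show no difference from them. Prlr, the prolactin receptor, was at 191, 254 and 228 CPM in deep acinar-like nuclei, and Zbtb16 at 295, 298 and 259 CPM.

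Nuclear retained RNAs, a check on how much of the RNA is nuclear, reached the minimum in 5 of 7 cases. Of these, 1 was counted higher and 0 lower in scopolamine against control (0.25), beside 5.29% and 3.37% of all genes. Malat1 was at 31576, 42101 and 27742 CPM in deep acinar-like nuclei and Neat1 at 4774, 4054 and 2641. The part of such differences in the Esp levels was not tested. The receptors of ESPs were close to absent: the 124 Vmn2r genes had 506, 510 and 660 UMIs in all, and Vmn2r116, the receptor of the Esp1 peptide, had 0, 1 and 0.

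To describe which genes ran most like each member, log2(CPM + 5) was correlated over 31 sums of a class in a library, across 9372 genes. The sums of a library share its free RNA, so these values describe libraries as much as classes. Esp15 was most like Pigr, the receptor that carries IgA into tears (r = 0.89), Lipo1 (0.88) and Scgb2b24 (0.87). Esp16 was most like the secretoglobins Scgb1b2 (0.95), Scgb2b24 (0.95) and Scgb2a2 (0.93), and Esp18 most like Pip, the prolactin-induced protein (0.87), Scgb2b20 (0.86) and Obp1b (0.86). Esp36 was most like Snap91, a protein of clathrin coats (0.97), Slc16a12 (0.96) and Bcat2 (0.96), and Esp23 most like Glrb (0.84), Prom2 (0.82) and Kcnn2 (0.80). Snap91 was at 232, 79.8 and 64.8 CPM in deep acinar-like nuclei. The members thus formed 2 groups by this measure: Esp15 with Esp16 (0.94) and Esp18 (0.84), and Esp36 with Esp23 (0.80), while Esp16 and Esp36 ran in opposite directions (-0.75).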

How the data were processed

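Nuclei of the mouse lacrimal gland were profiled in 3 libraries, 1 per group. The deposited matrices hold raw UMI counts per gene and nucleus, made by the authors with Cell Ranger 5.0.0 on mm10, per the submitters' processing notes. The annotation release and whether intronic reads were counted were not given in the sources used here. Nuclei with at least 500 UMIs, at least 300 genes and at most 5% mitochondrial UMIs were kept. Doublets were scored with scrublet in scanpy 1.11.5 (expected rate 0.06). It marked 0, 0 and 1 nuclei and so had not worked, and instead the 414, 801 and 1156 nuclei of highest score were removed (0.8% per 1000 nuclei). Kept nuclei were clustered by Leiden (igraph 0.11.9) at resolution 1 from 2000 variable genes, Esp genes left out, 30 components and 15 neighbours. Classes were named from marker lists, with thresholds set after the clusters were seen, so a name is that of a rebuilt cluster. Nuclei of low complexity have clusters with a median under 350 genes at 1000 UMIs.

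Counts were summed per class and library and scaled to CPM, with exact Poisson intervals. Ratios have exact conditional binomial intervals and shares exact Clopper-Pearson intervals (scipy 1.17.1). Classes were compared with at least 100 nuclei in each library. A gene counted as higher or lower had to reach a mean of 20 CPM and pass 1.5-fold, taken from log2 ratios with 5 CPM added, relative to the class median. The script was tested on simulated data. Intervals on a difference of CPM are normal approximations from the counts. Named were the 5 members, other Esp genes with at least 30 UMIs in a library, the 3 genes of highest mean CPM of each list, and the 3 genes most like each member over sums of at least 50 nuclei. Chrm3 and the tear transcripts were named from the acinar markers and Ddx3y from the sex-linked genes after their values were seen. One gene that this rule names is not reported here. The members and lists were chosen with earlier results of these data known.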

Additional observations from a re-analysis of the deposited data

Results flagged for a closer look

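Esp36 in tamsulosin against scopolamine went in opposite directions in different classes of nuclei. The CPM ratio was 1.14 in deep acinar-like nuclei (380 against 332 CPM) and 0.475 in myoepithelial-like nuclei (44.2 against 92.9 CPM). With 1 library per group, the difference between these classes was not tested.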

How the results depend on the processing

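With 1 library per group, no replicate could be left out. No paired analysis was possible because each group has 1 library. Over 14 other settings, 2 of them chosen after seeing the data (deep clusters alone, and the shallow unnamed cluster counted as acinar-like), the relative log2 of scopolamine against control stayed between 0.55 and 1.70 for Esp15, 1.16 and 3.29 for Esp16, and -1.74 and -1.29 for Esp36. For Esp18 it ran from -0.82 to 0.82 and for Esp23 from -1.13 to -0.07. Esp18 was counted higher there with low-complexity nuclei counted as acinar-like (6.48% of all genes) or with all nuclei (9.28%). The same held with deep clusters alone (6.45%) or the shallow unnamed cluster counted (6.91%). Subtracting the macrophage-like level left 1 member counted higher (Esp16, with 23.6% of all genes) and 2 lower (Esp18 and Esp36, 19.4%) in scopolamine against control. In tamsulosin against control it left 1 higher (Esp16, 22.0%), and Esp18 reversed to -1.14 from 0.97, counted lower with Esp36 (17.5%). The class median itself moved there, from -0.19 to 0.80 over 1291 genes in scopolamine against control. Thinning gave 2 lower in scopolamine against control (Esp23 and Esp36, 3.84%) and 1 higher in tamsulosin against scopolamine (Esp18, 5.16%). Counting low-complexity nuclei as acinar-like gave 2 higher in tamsulosin against scopolamine (Esp16 and Esp18, 6.59%). Leaving out the 50 most abundant genes (0.262%), or using no minimum CPM (0.269%), gave 1 lower there, Esp23. In tamsulosin against control 1 member, Esp36, was lower with Esp genes among the variable genes (3.87%), with low-complexity nuclei counted (3.83%), or with all nuclei (8.12%). The cause of these shifts was not tested. The myoepithelial-like level as background was also chosen after seeing the data. Esp23, with 134 to 465 UMIs in deep acinar-like nuclei, is limited by depth.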
